A study of Mus musculus with 3 samples.

Results

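The 8 genes described here make hyaluronan, cut it, bind it or form a lubricating surface with it: Has1, Has2, Has3, Hyal2, Cd44, Vcan, Tnfaip6 and Prg4. They were chosen by name from the 27998 genes of the deposited tables, with earlier results of these data known. Hyaluronan is a very long, unsulfated polysaccharide that the synthases Has1, Has2 and Has3 assemble at the plasma membrane from UDP-glucuronic acid and UDP-N-acetylglucosamine and push directly into the extracellular space. In the dermis it fills the matrix and holds water, is tied into aggregates by the proteoglycan versican (Vcan), receives heavy chains from serum proteins through TSG-6 (Tnfaip6), and is bound at the cell surface by CD44. In skin wounds hyaluronan is known as an early component of the provisional matrix in which inflammatory cells and fibroblasts move, and lubricin (Prg4) is best known as a boundary lubricant of joint surfaces that works together with hyaluronan.

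Single cells of dorsal skin were profiled in male C57BL/6 mice aged 7 to 9 weeks, wounded in the resting (telogen) phase of the hair cycle. The groups were non-lesional dorsal skin, the wound bed at 2 days and the wound bed at 7 days, from full-thickness wounds that measured 1.0 cm by 0.5 cm. Each group was 1 library, the sources used here do not give how many animals a library pooled, and no group carried a transgene or a drug. With 1 library per group there was no test and no replicate error: intervals below are 95% intervals that cover counting error only, and a difference between libraries is a difference between these libraries.

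The libraries held 10857, 8707 and 7317 cell barcodes for non-lesional skin, day 2 and day 7, with 102345327 to 138046172 unique molecular identifiers (UMIs, each marking 1 captured transcript) per library. After filtering 9354, 7339 and 4714 barcodes were kept, and 37 to 47 barcode sequences of each library also occurred in another. Clusters were formed without the 8 genes and named "-like" from fixed marker lists. Fibroblast-like cells, which had all 10 fibroblast markers at 85.8 CPM or more in each library, numbered 5827, 4060 and 2153, and their median depth was 9669, 26158 and 27319 UMIs. Levels are given as CPM, a gene's UMIs added up within a class of 1 library and divided by all UMIs of those cells, times 1e6. UMIs count captured 3' ends and not bases, so CPM does not scale with transcript length, although capture can differ between genes. In summed cells a lower level can come from fewer transcribing cells or from less RNA in each.

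Proximal promoter sequence is shown for Has1 and Tnfaip6, a synthase and a hyaluronan-modifying gene of the table whose levels differed widely between the fibroblast-like clusters of day 7. The sequences are RefSeq promoter windows on GRCm38.p6, reduced to the bases upstream of both the RefSeq and the GENCODE start. The Has1 stretch is chr17:17855206-17855438 on the minus strand and the Tnfaip6 stretch chr2:52037863-52038008 on the plus strand. Capitals mark the only matches found in them: a cyclic AMP response element (CRE, TGACGTCA) in Has1 and an AP-1 motif (TGANTCA) in Tnfaip6.
Has1: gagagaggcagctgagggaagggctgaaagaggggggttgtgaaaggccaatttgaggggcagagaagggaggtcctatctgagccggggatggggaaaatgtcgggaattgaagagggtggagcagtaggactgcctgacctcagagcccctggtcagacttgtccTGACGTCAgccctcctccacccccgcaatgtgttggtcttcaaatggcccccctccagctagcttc
Tnfaip6: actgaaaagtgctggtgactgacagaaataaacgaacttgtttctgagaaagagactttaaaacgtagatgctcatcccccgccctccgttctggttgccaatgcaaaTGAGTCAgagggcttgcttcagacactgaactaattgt
Motifs were searched on both strands, and none of them contains another. In 27025 RefSeq windows of 250 bases before the start, 1.62% held the CRE and 6.87% the AP-1 motif, while the TATA box (TATAAA) was in 13.0%, the TCF or LEF motif (TCAAAG) in 14.1% and the NF-kB motif in 3.75%. The CRE was added to the search after the Has1 sequence had been read. Of the 8 genes 5 had a window in the table, and those of Cd44 and Vcan held no match while that of Hyal2 held 1 NF-kB match. A match describes letters and not a bound site.

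Of the 8 genes Prg4 and Cd44 differed most in the day 2 wound. In fibroblast-like cells the lubricin gene Prg4 was almost absent from non-lesional skin and among the abundant transcripts at day 2, and Cd44 was several times higher, whereas the summed levels of the synthases Has1 and Has2 and of Tnfaip6 stayed within 2-fold. By day 7 Prg4 and Cd44 had lower levels than at day 2 but higher ones than in non-lesional skin, and Has2 and Tnfaip6 were less than 0.4 times their non-lesional level. A gene is called higher or lower here when the log2 ratio of (CPM + 5) is at least 1 in size, that is 2-fold, and folds in log2 are on that scale, which understates the change of low genes. At day 2 against non-lesional skin 2 of the 8 genes were called higher and 0 lower, where 11.7% and 6.2% of all 16025 genes measured were. At day 7 against non-lesional skin 4 were higher and 2 lower, where 8.69% and 4.31% of 15830 genes were. At day 7 against day 2, 0 were higher and 4 lower, where 2.81% and 1.67% of 16166 genes were. The median log2 fold of the 8 genes was 0.44, 0.53 and -0.75 in these pairs, beside 0.06, 0.14 and 0.02 over all genes. All 8 had at least 10 UMIs in each pair. The first and second pairs share the non-lesional library, and the others share a wound library.

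These counts depend on how the libraries are scaled. Under TMM scaling (a trimmed mean of gene ratios) the all-gene median of day 7 against non-lesional skin was 0.02 in place of 0.14, with 5.14% of genes higher and 6.82% lower, and under median-of-ratios scaling it was 0.01, with 4.83% higher and 7.41% lower. Under both scalings the count of the 8 genes in that pair was 2 higher (Cd44 and Prg4) and 3 lower (Has1, Has2 and Tnfaip6). At day 2 the shares were 9.03% higher and 8.21% lower under TMM and 8.53% and 8.81% under median-of-ratios scaling. Beside this, the collagen gene Col1a1 stood at 51222 CPM in non-lesional fibroblast-like cells, 8715 CPM at day 2 and 25544 CPM at day 7. Its part in the shift was not tested.

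**Figure D1:**
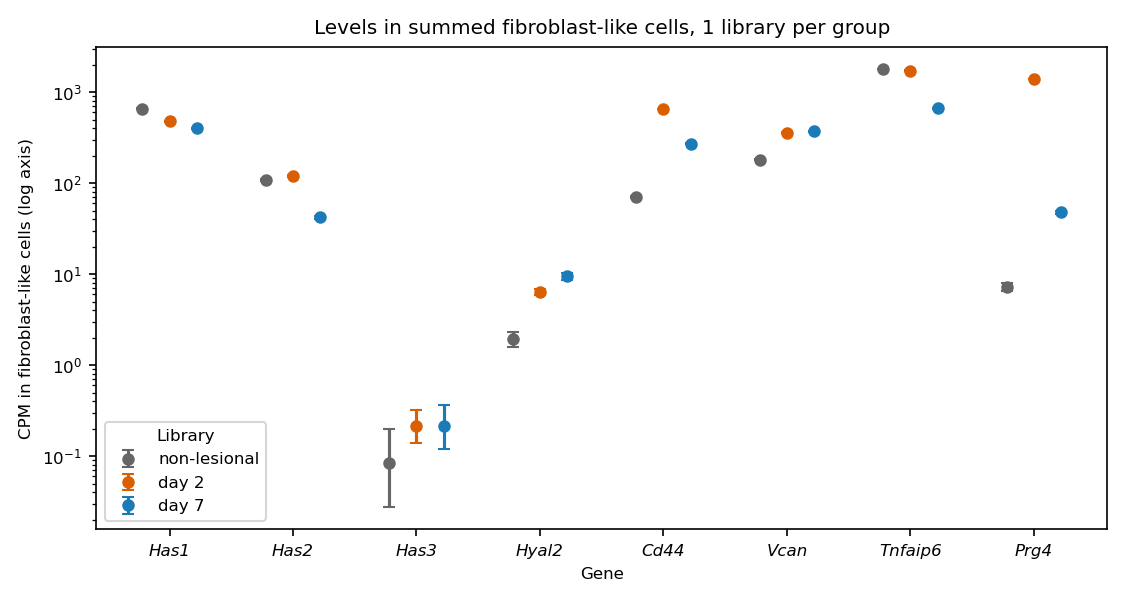
CPM (log axis) of the 8 genes in summed fibroblast-like cells of non-lesional skin, day 2 and day 7, 1 library each, with exact Poisson 95% intervals that cover counting error only. Prg4 spans 7.30 to 1404 CPM, the widest range of the 8, while Has1 lies between 404 and 659 CPM.

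Has1 makes hyaluronan at the membrane and lies at chr17:17843323-17855205 on the minus strand (GRCm38, GENCODE M21, as for all positions below). Its level in fibroblast-like cells was 659 CPM in non-lesional skin, 481 CPM at day 2 and 404 CPM at day 7. The counting intervals (652 to 665, 476 to 485 and 399 to 409 CPM) do not overlap, but the order of the wound libraries did not hold when cells were thinned to 1000 UMIs, where the log2 fold of day 7 against day 2 was 0.03 in place of -0.25. The ratio was 0.730 (0.720 to 0.739) at day 2 and 0.613 (0.603 to 0.623) at day 7 against non-lesional skin. Under TMM and median-of-ratios scaling the day 7 log2 fold, -0.70 here, was -1.06 and -1.12, past 2-fold. Fibroblast-like cells held 96.7%, 98.4% and 95.9% of all Has1 UMIs of the kept cells in the 3 libraries.

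Has2, the synthase needed for embryonic heart development in mice, lies at chr15:56665627-56694539 on the minus strand and overlaps the antisense gene Has2os, which was not analysed here. It stood at 107 CPM in non-lesional skin, 120 CPM at day 2 and 42.1 CPM at day 7. Its day 2 level was close to the non-lesional one, with a log2 fold of 0.15 that turned to -0.07 under TMM and -0.12 under median-of-ratios scaling. Its day 7 level was 0.392 times (0.375 to 0.411) the non-lesional one and 0.351 times (0.337 to 0.366) that of day 2.

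Has3, the synthase known for making shorter hyaluronan chains in vitro, was nearly undetected in fibroblast-like cells, with 5, 24 and 14 UMIs. These correspond to 0.0848, 0.216 and 0.217 CPM, and the ratio of day 2 to non-lesional skin was 2.55 with an interval of 0.953 to 8.55, so that no difference was detectable at this depth. In non-lesional skin 38 of its 48 UMIs came from keratinocyte-like cells (1.13 CPM). Has3 lies at chr8:106870242-106884566 on the plus strand and overlaps Chtf8 on the other strand, which stood at 20.5 CPM in the same keratinocyte-like cells. The sources used here do not say whether counting used strand, and the part of this overlap in the Has3 counts was not tested.

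Has1 and Has2 were both found in part of the fibroblast-like cells. Such a joint share rises with depth and with the share of each gene, and whether it exceeded that was not tested. Of fibroblast-like cells 75.4% had a UMI of any synthase in non-lesional skin, 91.6% at day 2 and 68.3% at day 7, and 34.2%, 64.6% and, at day 7, 646 of 2153 cells had both Has1 and Has2. Fibroblast-like cells were deeper in the wound libraries. With each cell thinned to 1000 UMIs, Has1 was found in 35.3%, 30.4% and 17.1% of cells (64.2%, 87.8% and 53.2% without thinning), and Has2 in 10.7%, 10.5% and 3.92% (45.4%, 68.4% and 44.9% without). Thinning left out 118, 53 and 33 shallower cells.

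Hyal2, a membrane-anchored hyaluronidase that cuts long chains at the cell surface, lies at chr9:107567945-107572779 on the plus strand. It was low in fibroblast-like cells throughout, at 1.92 CPM in non-lesional skin, 6.43 CPM at day 2 and 9.44 CPM at day 7. Both wound libraries were higher, with ratios of 3.36 (2.75 to 4.13) at day 2 and 4.93 (4.02 to 6.08) at day 7 against non-lesional skin. At this low level the calls depend on the settings. The log2 fold of day 2 was 0.72 with a pseudocount of 5 CPM and 1.35 with 1 CPM. That of day 7, 1.06, fell short of 2-fold under TMM (0.90) and median-of-ratios scaling (0.88) and in thinned cells (0.88). The antisense gene Gm9917, which overlaps it, stayed at 0.270 to 0.577 CPM in these cells. In non-lesional skin 80.3% of Hyal2 UMIs came from keratinocyte-like cells, at 21.6 CPM (20.1 to 23.3). At day 7 it was highest in lymphatic endothelial-like cells (59.6 CPM, 41.9 to 82.1, in 50 cells) and in endothelial-like cells (31.1 CPM, 22.7 to 41.6, in 113 cells), whose counting intervals narrowly miss each other.

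Cd44 encodes the main cell-surface receptor of hyaluronan and lies at chr2:102811141-102901665 on the minus strand. In fibroblast-like cells it stood at 70.1 CPM in non-lesional skin, 656 CPM at day 2 and 271 CPM at day 7. Day 2 was the highest, 9.36 times (9.07 to 9.66) non-lesional skin, and day 7 lay between, at 3.87 times (3.74 to 4.002) non-lesional skin and 0.413 times (0.406 to 0.420) day 2. After thinning, 7.44% of non-lesional cells, 41.9% of day 2 cells and 21.04% of day 7 cells had a Cd44 UMI, ranked as the CPM were. Leukocytes carry this receptor too, and it reached 1440 CPM in neutrophil-like and 1096 CPM in monocyte or macrophage-like cells at day 2. The 9 neutrophil markers summed to 16.9, 152 and 67.1 CPM in fibroblast-like cells of the 3 libraries, with Ly6g at 0 in non-lesional skin alone. The highest of them were G0s2 (14.8 CPM), S100a9 (77.0 CPM) and Mmp9 (43.7 CPM) in the same order. The 11 monocyte or macrophage markers summed to 56.2, 28.1 and 19.4 CPM with none at 0, of which Csf1r alone was at 51.4, 24.8 and 7.47 CPM. The part of leukocyte RNA in the Cd44 levels was not tested. In non-lesional skin keratinocyte-like cells held 47.0% of Cd44 UMIs (186 CPM) against 30.9% in fibroblast-like cells.

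Vcan encodes versican, which binds hyaluronan through its amino-terminal end, and lies at chr13:89655312-89742509 on the minus strand. In fibroblast-like cells it stood at 182 CPM in non-lesional skin, 358 CPM at day 2 and 372 CPM at day 7. Both wound libraries were at about the same, higher level: the ratio to non-lesional skin was 1.97 (1.93 to 2.02) at day 2 and 2.05 (2.00 to 2.09) at day 7, on either side of 2-fold. Under TMM and median-of-ratios scaling the day 7 log2 fold was 0.66 and 0.60 in place of 1.01, below it. The 8 dermal papilla markers, used because papilla cells carry Vcan too, summed to 83.1, 239 and 485 CPM in fibroblast-like cells of the 3 libraries. None was at 0. Most of each sum was a single gene: Fgf7 in non-lesional skin (61.8 CPM) and at day 2 (124 CPM), and Crabp1 at day 7 (434 CPM). The part of papilla cells in the Vcan levels was not tested.

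The highest level of any of the 8 genes in any class was that of Vcan in dermal papilla-like cells of the day 7 wound. The dermal papilla is the mesenchymal signalling centre of the hair follicle, where versican is a known marker of the growth phase in mice. Vcan stood there at 3662 CPM (3591 to 3733, 265 cells), against 211 CPM (197 to 225, 118 cells) in non-lesional skin, a ratio of 17.4 (16.2 to 18.6). After thinning, 88.5% of the day 7 cells had a Vcan UMI, against 25.6% of the non-lesional ones. Without thinning, 260 of the 265 day 7 cells and 110 of the 118 non-lesional ones had one. Dermal papilla-like cells, 5.62% of kept day 7 cells and 1.26% of non-lesional ones, held 28.8% of all Vcan UMIs at day 7. In non-lesional skin they held 6.78%. At day 2, 0 of 7339 cells had this class, which allows a share of up to 0.0409%. Different clusters made up the class: 264 of the day 7 cells were in a cluster led by Wif1 and Corin, and 117 of the non-lesional cells in one led by Slc26a7 and Pappa2. Their median depth was 5293 UMIs at day 7 and 38846 UMIs in non-lesional skin. Both carried the papilla markers, with Wif1 at 1653 against 609 CPM, Corin at 451 against 26.7 CPM and Lef1 at 424 against 328 CPM. Crabp1 and Notum ran the other way, at 616 against 2369 CPM and 45.5 against 258 CPM. Tnfaip6 was lower, at 102 CPM at day 7 against 1917 CPM in non-lesional skin, as was Has1, at 13.1 against 103 CPM. Cd44 was higher, at 310 against 113 CPM (ratio 2.74, 2.45 to 3.07), as was Hyal2, at 13.8 against 4.22 CPM (ratio 3.28, 1.83 to 6.09). Has2, with 6 UMIs in each library, and Prg4, with 6 against 35 UMIs, were called neither, and Has3 had too few UMIs to be measured. Of the 7 genes measured in this class 3 were higher and 2 lower at day 7, where 22% and 7.67% of all genes were.

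Tnfaip6 encodes TSG-6, a secreted protein induced in inflammation that moves heavy chains onto hyaluronan, and lies at chr2:52038009-52056686 on the plus strand, directly downstream of the sequence printed above. In fibroblast-like cells it stood at 1793 CPM in non-lesional skin, 1729 CPM at day 2 and 664 CPM at day 7. The first pair of values was close, with a ratio of 0.964 (0.957 to 0.971), and day 7 was the low one, at 0.370 times (0.366 to 0.375) non-lesional skin and 0.384 times (0.380 to 0.388) day 2. It was found in 67.5%, 68.3% and 32.6% of thinned cells, in the same order of libraries.

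Prg4 encodes lubricin and lies at chr1:150449412-150466165 on the minus strand. In fibroblast-like cells it stood at 7.30 CPM in non-lesional skin (430 UMIs), 1404 CPM at day 2 (155812 UMIs) and 47.7 CPM at day 7 (3071 UMIs). Day 2 was far above both: 192 times (175 to 212) non-lesional skin, a log2 fold of 6.84, while day 7 was 6.54 times (5.91 to 7.25) non-lesional skin and 0.0340 times (0.0328 to 0.0352) day 2. Thinned to 1000 UMIs, 52.2% of day 2 cells still had a Prg4 UMI, against 0.911% of non-lesional cells, and at day 7 3.77% had one. Fibroblast-like cells held 98.4% of its day 2 UMIs. Prg4 overlaps Tpr on the other strand. Tpr stood at 139 CPM in non-lesional keratinocyte-like cells, where Prg4 had 3 UMIs (0.0891 CPM), and at 121, 203 and 170 CPM in fibroblast-like cells of the 3 libraries, ranked as Prg4 was. The part of this overlap in the Prg4 levels was not tested.

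**Figure D2:**
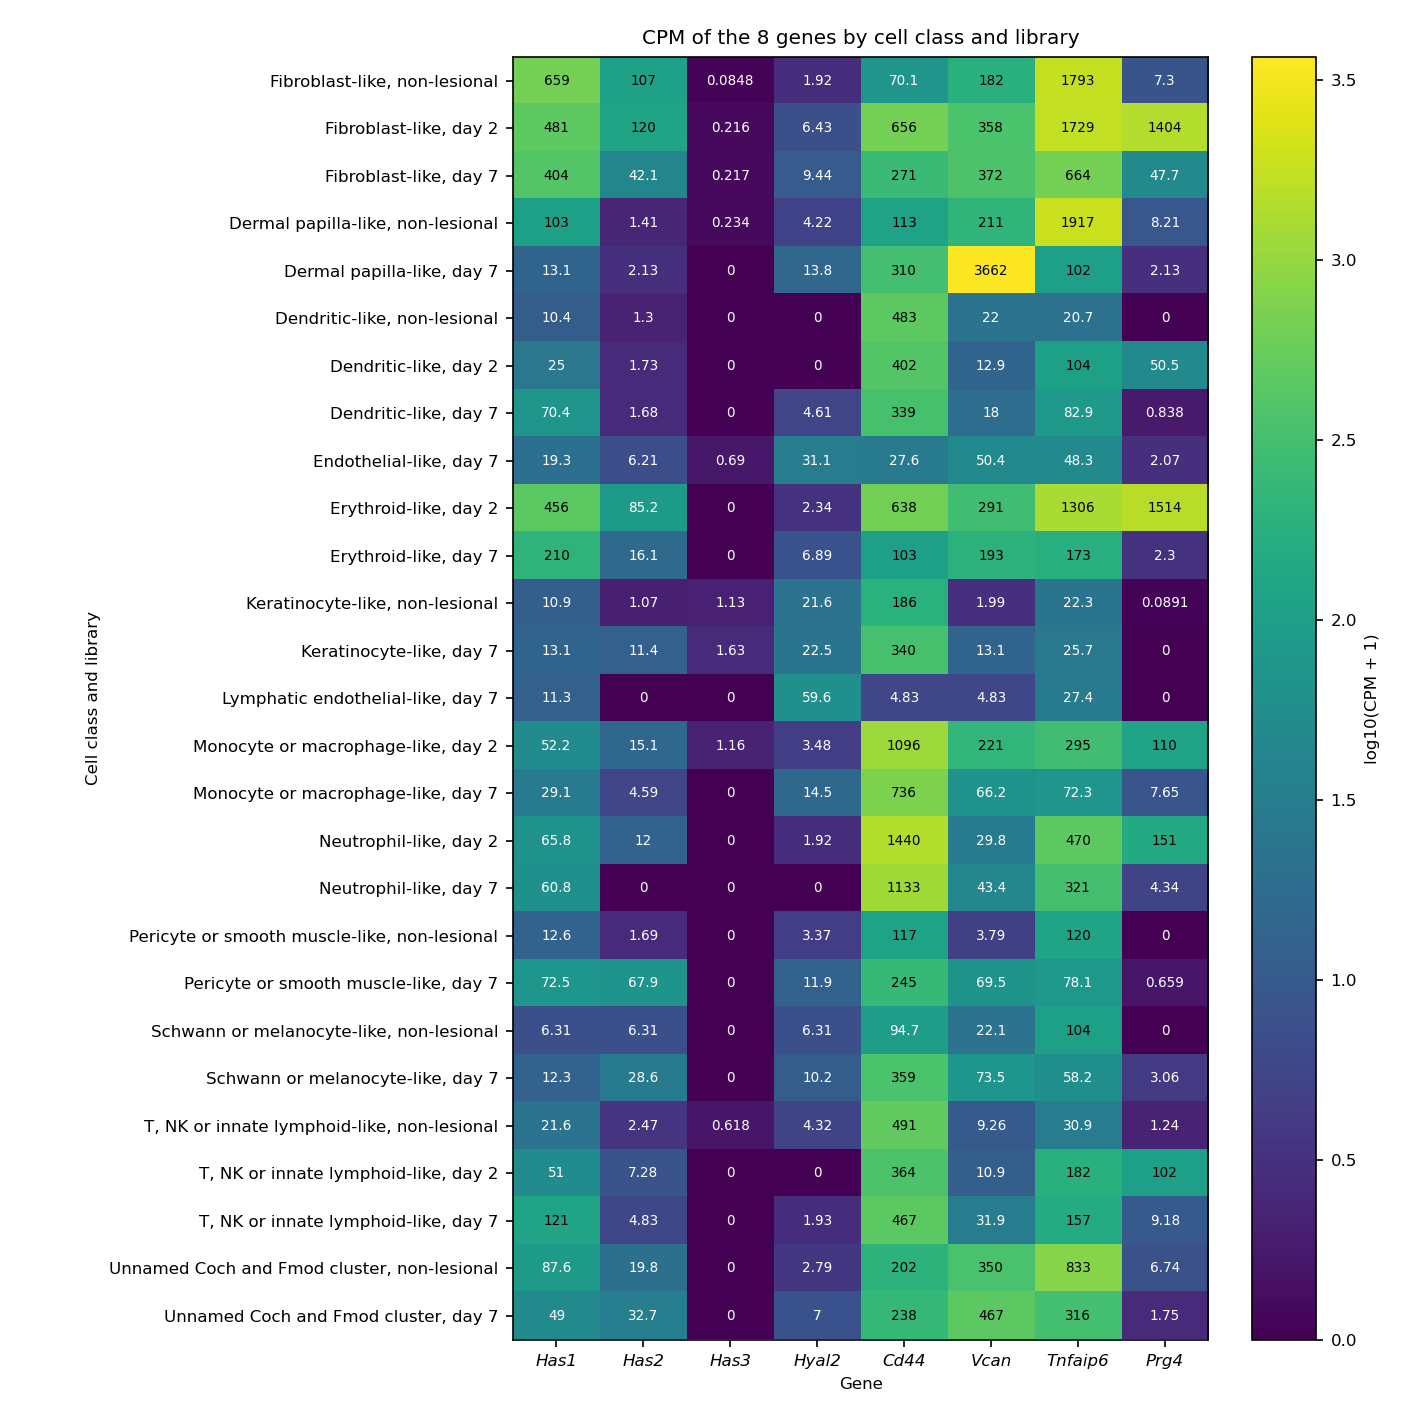
CPM of each of the 8 genes (columns) in each class and library with at least 50 cells (rows), coloured by log10(CPM + 1) and printed in each field. The highest row over all libraries is a fibroblast-like one for Has1 and Has2 and, setting aside day 2 erythroid-like cells, for Prg4. Within day 7 Has2 is higher in pericyte or smooth muscle-like cells (67.9 CPM). Within non-lesional skin Prg4 is close in dermal papilla-like cells (8.21 CPM, 35 UMIs) and fibroblast-like cells (7.30 CPM). Cd44 peaks at 1440 CPM in day 2 neutrophil-like cells and Vcan at 3662 CPM in day 7 dermal papilla-like cells.

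Outside fibroblast-like cells low levels have to be read against free RNA. In day 2 neutrophil-like cells the stromal genes Col1a1, Col1a2, Col3a1 and Dcn stood at 7.10% to 17.0% of their fibroblast-like level, and Has1, Has2, Vcan and Prg4 at 13.7%, 10.02%, 8.31% and 10.7% of theirs, inside that range. Tnfaip6 stood above it there, at 27.2% (470 CPM). The shares of thinned cells given above have the same background. In non-lesional keratinocyte-like cells (median 16840 UMIs) Has1 was found in 1.06%, Has2 in 0.0661% and Tnfaip6 in 1.59% of thinned cells. In dendritic-like cells of day 2 (median 3936 UMIs) and day 7 (median 6513 UMIs) Has1 was found in 3.63% and 2.50%, Tnfaip6 in 11.7% and 5.94% and Prg4 in 4.97% and 0.313%, all below the fibroblast-like shares. The 76 day 2 cells called erythroid-like carried Prg4 at 1514 CPM and Has1 at 456 CPM, near the fibroblast-like levels, and their values are not read as expression. In day 2 monocyte or macrophage-like cells Vcan was at 61.5% of the fibroblast-like level (221 CPM, 190 to 254), where the stromal genes were at 10.9% to 14.4%. Of its 190 UMIs there, 72 were in 5 of 362 cells.

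In pericyte or smooth muscle-like cells Has2 stood above this background at day 7 and within it in non-lesional skin. Has2 had 206 UMIs in 189 cells at day 7 (67.9 CPM, 58.9 to 77.8), against 4 UMIs in 299 cells of non-lesional skin (1.69 CPM, 0.461 to 4.32), a ratio of 40.3 (15.5 to 149). The day 7 level was 161% of that in fibroblast-like cells, where the stromal genes stood at 4.89% to 18.0%; in non-lesional skin it was 1.57%, with the stromal genes at 0.588% to 2.26%. At day 7, 64 of the 189 cells had a UMI, with 63 of the 206 UMIs in 5 cells. Vcan in the same cells, 69.5 against 3.79 CPM, was at 18.7% of the fibroblast-like level at day 7, just above that range, and Has1, 72.5 against 12.6 CPM, at 18.0%, its upper end. Of the 6 genes measured in this class 5 were called higher and 0 lower at day 7, where 14% and 8.48% of all genes were. The 5 were Has1, Has2, Hyal2, Cd44 and Vcan, so the count includes Has1 and Vcan, which stood at or near the background at day 7. Day 2 held 13 cells of this class and was not compared. The class joined 2 clusters whose shares differed between the libraries. The cluster led by Rgs5 and Sparcl1 had 234 non-lesional and 185 day 7 cells, and that led by Des and Myh11 had 65 and 4. The part of this mix in the ratios was not tested.

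Within fibroblast-like cells the genes split by cluster. In non-lesional skin Has1 was highest in the cluster led by Smpd3 and Efhd1, at 1831 CPM (1670 cells), against 137 to 696 CPM in the other 4 fibroblast-like clusters. Has2 was highest in the same cluster, at 281 CPM against 32.5 to 107 CPM. Tnfaip6 was more even, between 1503 and 2631 CPM, and Prg4 reached 35.3 CPM in the cluster led by Myoc and Mgp but 1.17 to 6.66 CPM elsewhere.

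At day 2 the clusters led by Saa3 and Cxcl14 (2300 cells) and by Thbd and Il11 (1724 cells) had nearly equal Has1, at 481 and 482 CPM. Both also carried Prg4, at 1548 and 1234 CPM. Has2 and Tnfaip6 were higher in the Thbd and Il11 cluster, at 160 against 85.4 CPM and 2224 against 1307 CPM, and Cd44 at 786 against 547 CPM.

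At day 7 a smaller cluster held most fibroblast-like UMIs of Has1 (22730 of 25989), Tnfaip6 (26717 of 42751) and Prg4 (2132 of 3071), but not of Cd44 (5330 of 17451), Has2 (718 of 2709), Vcan (3228 of 23936), Hyal2 (54 of 608) or Has3 (1 of 14). This cluster, led by Dlk1 and H19 with 433 cells, had Has1 at 2277 CPM, Tnfaip6 at 2677 CPM, Prg4 at 214 CPM and Cd44 at 534 CPM. The cluster led by Prss35 and Tnn, 1500 cells and the main day 7 population, had Has1 at 41.8 CPM, Tnfaip6 at 275 CPM, Prg4 at 12.1 CPM and Cd44 at 224 CPM. Has2 stood at 71.9 CPM in the Dlk1 and H19 cluster and 36.4 CPM in the Prss35 and Tnn cluster. Vcan did not follow this split, at 323 CPM in the Dlk1 and H19 cluster and 386 CPM in the Prss35 and Tnn cluster, and Hyal2 was lower in the Dlk1 and H19 cluster, at 5.41 against 10.5 CPM. The 583 of 5827 fibroblast-like cells with the most Has1 held 49.4% of its UMIs in non-lesional skin, the top 406 of 4060 held 40.9% at day 2, and the top 216 of 2153 held 79.0% at day 7. For Prg4 the top 216 cells held 87.6% at day 7, and the top 406 held 46.8% at day 2. These are descriptions of clusters made from the same cells, with no test.

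**Figure D3:**
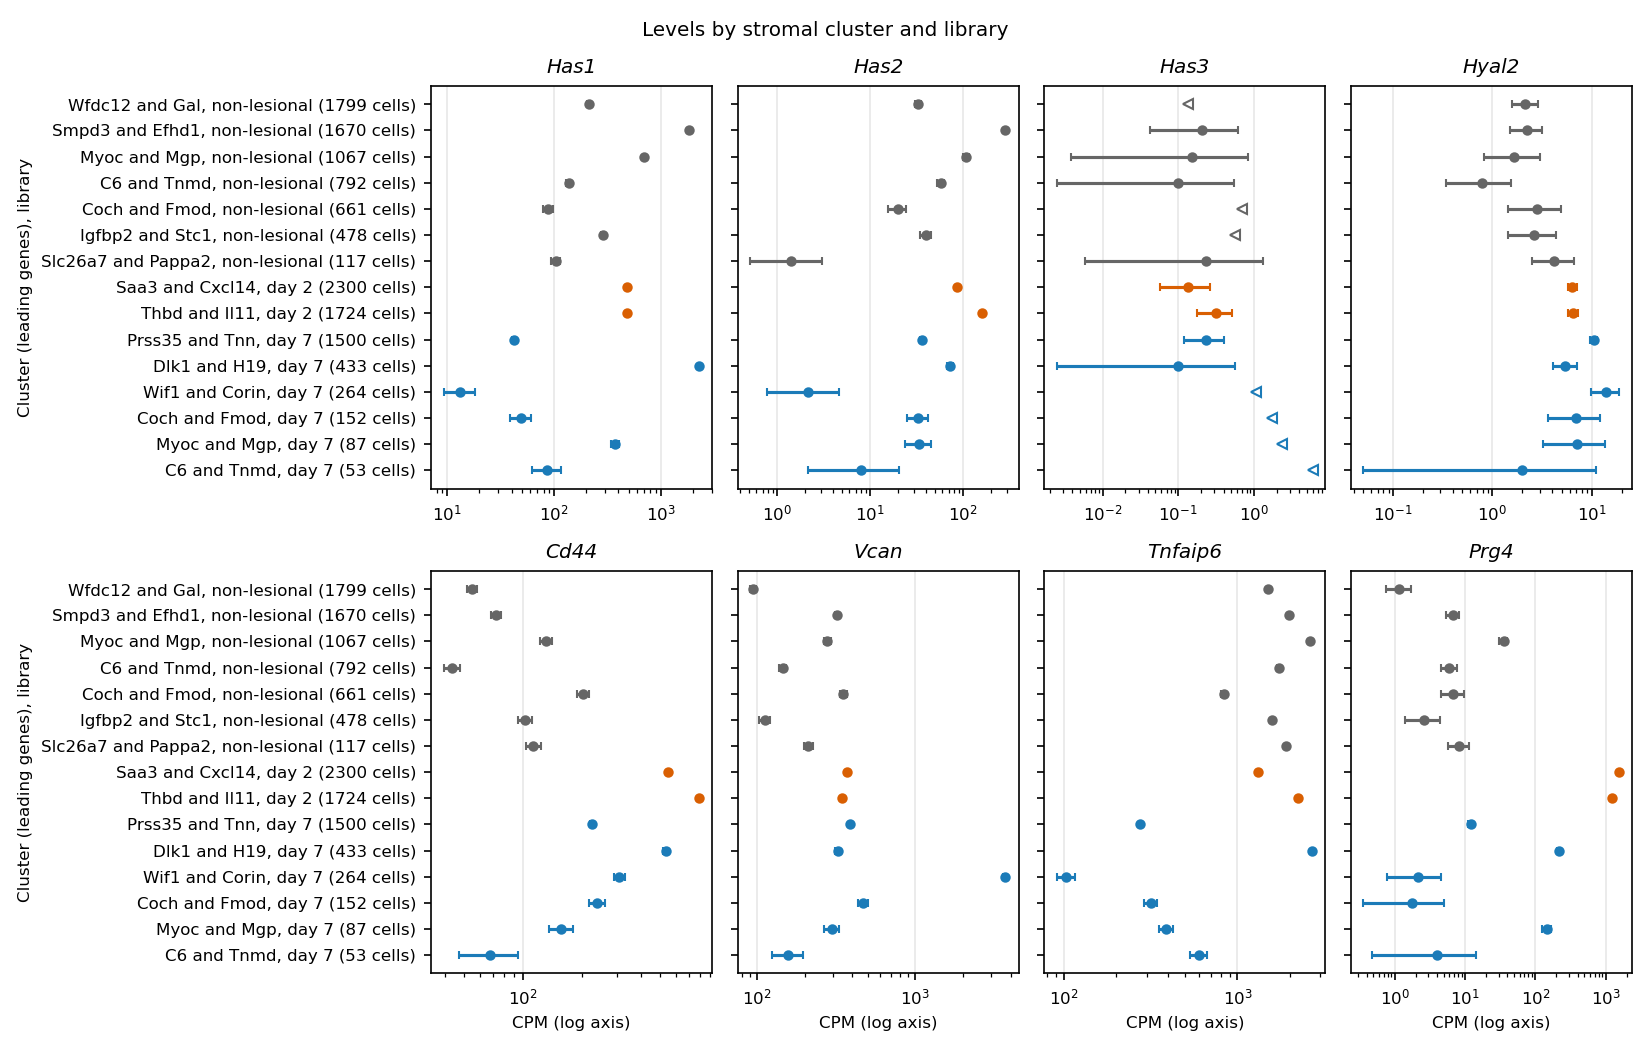
CPM (log axis, exact Poisson 95% intervals) of each gene in fibroblast-like, dermal papilla-like and unnamed clusters of at least 50 cells, grey for non-lesional skin, orange for day 2 and blue for day 7; open triangles mark 0 UMIs at the level of 3 counts. Has1, Tnfaip6 and Prg4 differ widely between the day 7 clusters, with Has1 at 2277 CPM in the Dlk1 and H19 cluster and 41.8 CPM in the Prss35 and Tnn cluster.

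Because different clusters hold most fibroblast-like cells in each library, day 7 and non-lesional skin were also set side by side within the 3 clusters that had at least 50 cells in both. These were the Myoc and Mgp cluster (87 day 7 and 1067 non-lesional cells), the C6 and Tnmd cluster (53 and 792) and an unnamed stromal cluster led by Coch and Fmod (152 and 661). Tnfaip6 was at least 2-fold lower at day 7 in all 3: 388 against 2631 CPM, 597 against 1723 CPM and 316 against 833 CPM. The 3 ratios, 0.147 (0.134 to 0.161), 0.346 (0.308 to 0.388) and 0.380 (0.346 to 0.416), lie on the same side as that of the whole class. Of all genes measured 5.52%, 3.1% and 5.65% were called lower in these clusters. The clusters led by Prss35 and Tnn and by Dlk1 and H19, which held most day 7 fibroblast-like cells, could not be compared this way. They had 1500 and 433 cells at day 7 but 0 and 3 in non-lesional skin. In these clusters Tnfaip6 stood at 275 and 2677 CPM at day 7. The second value was above the 1503 to 2631 CPM of the non-lesional fibroblast-like clusters with at least 50 cells. The lower level of Tnfaip6 at day 7 was therefore not seen in every fibroblast-like cluster.

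Cd44 did not show the whole-class ratio of 3.87 within any of the 3 clusters. It stood at 157 against 131 CPM in the Myoc and Mgp cluster, 67.6 against 43.3 CPM in the C6 and Tnmd cluster and 238 against 202 CPM in the Coch and Fmod cluster, ratios of 1.20 (1.02 to 1.40), 1.56 (1.07 to 2.22) and 1.18 (1.05 to 1.33). Vcan was likewise at 1.06, 1.08 and 1.34 times its non-lesional level. Prg4 was higher at day 7 in the Myoc and Mgp cluster, at 145 against 35.3 CPM, and had 2 and 3 UMIs at day 7 in the C6 and Tnmd and the Coch and Fmod clusters, ratios of 0.663 (0.0785 to 2.50) and 0.260 (0.0506 to 0.838). Has2 was lower in the Myoc and Mgp cluster (33.2 against 107 CPM) and the C6 and Tnmd cluster (7.96 against 57.5 CPM) but not in the Coch and Fmod cluster (32.7 against 19.8 CPM). In the C6 and Tnmd cluster Has2 had only 4 UMIs at day 7, a ratio of 0.138 (0.0376 to 0.356). Has1 was 0.539 to 0.622 times its non-lesional level in the 3 clusters, beside 0.613 in the whole class.

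**Figure D4:**
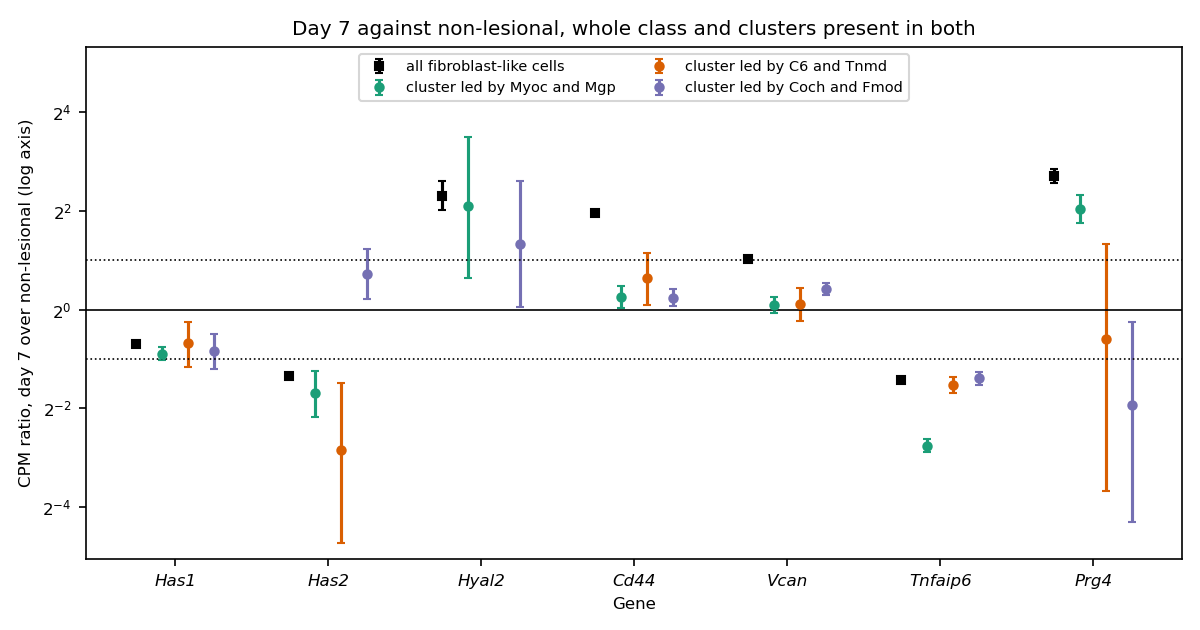
Ratio of CPM at day 7 to non-lesional skin (log axis, exact 95% counting intervals) in all fibroblast-like cells and in the 3 clusters with at least 50 cells in both libraries; dotted lines mark 2-fold. Tnfaip6 lies below 0.5 in all 4, while Cd44 is 3.87 in the whole class and 1.18 to 1.56 in the clusters.

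Other genes of hyaluronan metabolism were read from 6 lists with 42 genes, all of them in the tables. At day 2 against non-lesional skin 10 of 38 measured genes were higher and 3 lower, where 11.7% and 6.2% of all genes were. At day 7, 6 of 36 were higher and 5 lower, where 8.69% and 4.31% of all genes were. At day 7 against day 2, 1 of 37 was higher and 4 lower, where 2.81% and 1.67% of all genes were. The counts of each list below are small and stand against these same shares. The median log2 fold over these lists was 0.09, 0.06 and -0.09 in these pairs, beside 0.06, 0.14 and 0.02 over all genes.

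Of the 7 genes that make the UDP-sugar precursors, 1 was higher and 1 lower at day 2, and 0 were higher and 3 lower at day 7 against non-lesional skin (all genes 11.7% and 6.2% at day 2, 8.69% and 4.31% at day 7). Ugdh, the enzyme that makes UDP-glucuronic acid, stood at 1071 CPM in non-lesional skin, 335 CPM at day 2 and 207 CPM at day 7, the lowest. Gfpt2, a rate-limiting enzyme of the hexosamine route, stood at 497, 249 and 80.2 CPM in the same order. Uap1, which forms UDP-N-acetylglucosamine, was at 454 CPM in non-lesional skin, 390 CPM at day 2 and 99.6 CPM at day 7, and Gnpnat1, an enzyme of the same route, at 33.8, 88.8 and 44.3 CPM. By cluster Ugdh (2831 CPM), Gfpt2 (1572 CPM) and Uap1 (1143 CPM) were highest in the non-lesional Smpd3 and Efhd1 cluster, where Has1 was the highest of that library. The other precursor genes did not all peak there: Gnpnat1 stood at 80.6 CPM in it and at 94.6 CPM in the day 2 Thbd and Il11 cluster, and Gfpt1 at 66.7 CPM in it and at 109.6 CPM in the non-lesional Wfdc12 and Gal cluster. At day 7 Ugdh, Gfpt2 and Uap1 stood at 774, 316 and 355 CPM in the Dlk1 and H19 cluster and at 91.7, 33.1 and 48.2 CPM in the Prss35 and Tnn cluster.

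Of the 7 degradation genes, 2 were higher and 1 lower at day 2 and 2 higher and 0 lower at day 7 against non-lesional skin (all genes 11.7% and 6.2%, then 8.69% and 4.31%). Cemip, needed for hyaluronan breakdown by human dermal fibroblasts, had 2288 UMIs at day 2 (20.6 CPM), 687 at day 7 (10.7 CPM) and 0 in non-lesional skin, which puts day 2 at least 405-fold higher if 3 counts are taken as the floor for the summed class. Tmem2 (Cemip2), a cell-surface hyaluronidase in mice, was at 11.6 CPM in non-lesional skin, 71.5 CPM at day 2 and 65.6 CPM at day 7. Hexa, a lysosomal hexosaminidase, was the lower one at day 2, with 219 CPM in non-lesional skin, 42.9 CPM at day 2 and 116 CPM at day 7.

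Among 5 other hyaluronan receptors 2 were higher and 0 lower at day 2, and 1 higher and 0 lower at day 7 against non-lesional skin, beside 11.7% and 6.2%, then 8.69% and 4.31%, of all genes. Hmmr, a hyaluronan receptor that is also a mitotic spindle gene, stood at 0.0679 CPM (4 UMIs) in non-lesional skin, 50.5 CPM at day 2 and 36.8 CPM at day 7. Of the 3 linkers of CD44 to the actin cortex, Ezr was at 7.35 CPM in non-lesional skin, 29.9 CPM at day 2 and 27.6 CPM at day 7, and Msn at 114 CPM in non-lesional skin, 242 CPM at day 2 and 209 CPM at day 7. Of the 3, 2 were called higher at day 2 (11.7% of all genes) and 1 at day 7 (8.69%).

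Of 14 link proteins, other hyalectans and heavy chain donors 10 were measured at day 2, with 1 higher and 1 lower, and 8 at day 7, with 0 higher and 1 lower (all genes 11.7% and 6.2% at day 2, 8.69% and 4.31% at day 7). Ptx3, a pentraxin that binds the heavy chains on hyaluronan, stood at 349 CPM in non-lesional skin, 1544 CPM at day 2 and 321 CPM at day 7, so that day 2 alone was high. Itih5, a heavy chain family member, ran the other way, at 188, 22.6 and 48.1 CPM. Of the 6 versican-cleaving proteases 2 were higher and 0 lower at day 2, and 2 higher and 1 lower at day 7 against non-lesional skin, where the same all-gene shares apply. Adamts15 stood at 6.77, 41.3 and 51.3 CPM in the 3 libraries, Adamts9 at 3.70, 14.6 and 32.2 CPM, and Adamts5 at 425, 455 and 100.4 CPM.

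**Figure D5:**
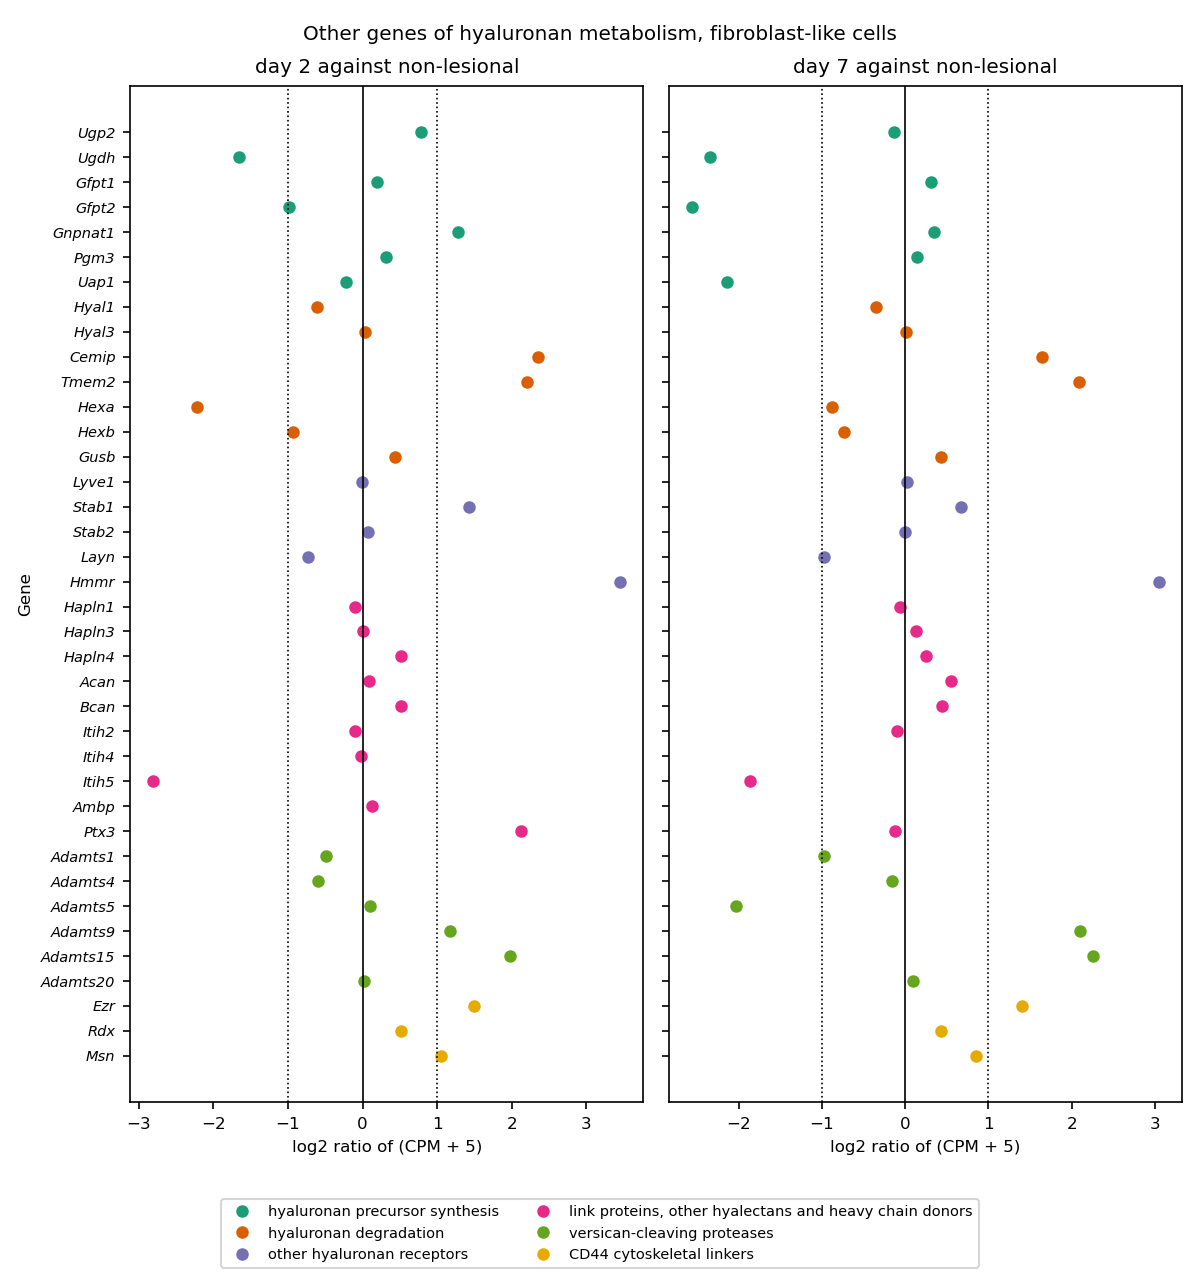
Log2 ratio of (CPM + 5) for the measured genes of the 6 lists in fibroblast-like cells, day 2 (left) and day 7 (right) against non-lesional skin; dotted lines mark 2-fold. Ugdh lies at -1.66 and -2.34 and Hmmr at 3.45 and 3.05; the position of Cemip depends on the pseudocount, since it had 0 UMIs in non-lesional skin.

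Across 27 class-by-library sums of at least 50 cells the genes whose log2(CPM + 5) was most like that of each member were as follows, as descriptions over sums that share libraries. Has1 was most like Medag and Sfrp4 (Pearson r = 0.91 for both), Has2 like Ccl11 (0.86) and Prg4 like Car4 (0.92) and Il11 (0.89). Tnfaip6 was most like the precursor gene Gfpt2 (0.86), Vcan like Olfml3 (0.91) and Pdgfra (0.89), Hyal2 like C77080 (0.91) and Cd44, with the weakest likeness, like Rnf149 (0.75). Has3 was below 50 CPM in every sum and was not compared. The sums include those of erythroid-like cells, and free RNA was not removed from any sum. The part of either in these likenesses was not tested.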

How the data were processed

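Skin cells were released with collagenase D and DNase1 and sequenced as Chromium 3' libraries on a NovaSeq6000, per the labels' protocols. The authors deposited UMI count matrices, unnormalized, with a row for each gene and a column for each barcode; the submitters' processing notes name Cell Ranger 3.0.2, Seurat 3.0 and mm10, while the file headers name Cell Ranger 5.0.0, a difference that was not resolved. Counting could not be checked for strand, so overlapping genes stay uncertain.

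Barcodes were kept with at least 200 genes and at most 10% mitochondrial UMIs, which removed 192, 390 and 543 barcodes and then 368, 372 and 1632 in non-lesional skin, day 2 and day 7. The highest Scrublet doublet scores (scanpy 1.11.5), 0.8% per 1000 barcodes, removed 943, 606 and 428 more. Each cell was scaled to 10000 counts and put on a log scale. A set of 2000 variable genes without the 8 members and the 6 lists, 30 components and 20 neighbours gave 32 Leiden clusters at resolution 1 (leidenalg 0.10.2), with no integration of libraries. Clusters were named from fixed marker lists by the mean relative marker level (at least 0.35), and one led by Coch and Fmod stayed unnamed because a dermal papilla marker and no fibroblast marker was among its leading genes. Rebuilt names can differ from the authors'.

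UMIs were summed per class and library and given as CPM, with exact Poisson intervals for levels, exact conditional binomial intervals for ratios and Clopper-Pearson limits behind shares of cells. Pairs needed 50 cells in both libraries and a gene 10 UMIs in the pair. Cells with fewer than 1000 UMIs were left out of thinning. With 1 library per group no test could be run. The fold procedure was tested on simulated data. The R version was 4.3.3, with edgeR 4.0.16 for TMM; Python was 3.11.15, with scipy 1.17.1 and numpy 2.4.6. Positions are those of GENCODE M21, which held 27722 of the 27998 identifiers. The members, the pathway and marker lists and the alternatives were chosen with earlier results of these data known. All 8 members are named. Of each pathway list and pair, the 2 genes with the largest fold were named among those past 2-fold and at 20 CPM in the higher library; the level of a named gene is given in each library, and in clusters where described. For each member at 50 CPM or more in some class, up to 3 most similar genes were found.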

Additional observations from a re-analysis of the deposited data

Results flagged for a closer look

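Has2 differed in direction between classes at day 7 against non-lesional skin. Its log2 fold was -1.25 in fibroblast-like cells but 3.45 in pericyte or smooth muscle-like cells and 1.57 in Schwann or melanocyte-like cells, where 28 UMIs at day 7 stood against 4 in non-lesional skin. Has1 did so too, with a log2 fold of 2.29 in dendritic-like cells and -2.58 in dermal papilla-like cells. Apart from fibroblast-like cells, these are classes that in their higher library had 20 CPM or more and a share of the fibroblast-like level at least 2 times the highest of the 4 stromal genes. Nearer that background, Has1 was also higher in T, NK or innate lymphoid-like (2.24) and pericyte or smooth muscle-like cells (2.13). Under 20 CPM, Has2 was higher in keratinocyte-like cells (1.44), at 11.4 CPM at day 7 against 1.07 CPM. Of the 168 Has1 UMIs in 330 dendritic-like cells at day 7, 133 were in 1 cell, against 8 UMIs in 121 such cells of non-lesional skin, and the dermal papilla-like values come from different clusters in the libraries. With 1 library per group these differences between classes were not tested.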

How the results depend on the processing

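Of 240 log2 folds of the 8 genes under alternative settings 0 reversed a called direction, 13 changed sign while within 2-fold, and 11 crossed 2-fold. Of 66 counts of genes called, 63 were within 1.5 times the reported count. The others were the genes called higher at day 7 against non-lesional skin, 4 as reported: 2 (Cd44 and Prg4) under TMM scaling, 2 under median-of-ratios scaling and 2 in cells thinned to 1000 UMIs, where Hyal2 (0.90, 0.88 and 0.88) and Vcan (0.66, 0.60 and 0.84) lay under 1 in log2. The cause was not tested. Naming cells one by one, or counting the Coch and Fmod cluster as fibroblast-like (an alternative added after the data were seen), also put Vcan under it, at 0.93 and 0.94. Across settings the log2 fold of Prg4 at day 2 against non-lesional skin was 6.42 to 7.40 and that of Cd44 2.86 to 3.21. No paired analysis was possible because each group was 1 library, and no library could be left out. Depth limits Has3 most, with 5 to 24 UMIs per library in fibroblast-like cells.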
